A study of Mus musculus with 8 samples.

Results

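Complement genes were followed across 8 hearts of mice heterozygous for Pcyt2, whose enzyme controls the making of phosphatidylethanolamine from ethanolamine. The set names 9 genes: the recognition subunits C1qa, C1qb and C1qc, the central component C3, the terminal components C6 and C7, the receptors C3ar1 and C5ar1, and the inhibitor Serping1. Of these, 8 had a probe set that carries that symbol alone, out of 22180 genes measured, each of the 8 by 1 probe set, and C3 was not analysed here. The members were chosen by pathway and with their sex differences and spread on these arrays known, so the values that could have selected them are the differences reported here. Their own differences are therefore given as a description, with errors and without a test.

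The groups were 4 males and 4 females, all Pcyt2+/-, all 8 months old, with hearts taken 3 to 4 hours after lights on and labelled as myocardium. The heterozygous genotype is common to all 8 animals and no wild-type heart was analysed here, so sex is the contrast these values hold. The strain and the chambers taken are unstated in the labels. Each heart was hybridised to its own expression array, and the labels call the animals biological replicates.

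Complement is a cascade of blood and tissue proteins that mark microbes, dying cells and debris. C1q binds such targets and starts the classical pathway, cleavage of C3 coats them and releases a signalling fragment, and C5b joined with C6, C7, C8 and C9 forms the pore of the membrane attack complex. Most circulating components come from liver, but tissue macrophages are the main source of C1q, and fibroblasts and other stromal cells make several components locally, C7 among them.

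All values are log2 values relative to the median of that probe set over the 8 hearts, so 0 lies midway between the fourth and the fifth heart and no absolute level is known. A value of 1 therefore means a doubled signal relative to that middle, and one gene cannot be called more abundant than another. Differences are females minus males, so a negative difference means higher in males. The array medians lay between -0.00211 and 0.00230. Xist was higher in each female heart and Eif2s3y, Uty and Kdm5d in each male heart, so the labelled sexes matched these genes. Pcyt2 itself lay between -0.13 and 0.32 in males and between -0.06 and 0.24 in females. Myh4, a fast skeletal myosin gene, was highest in male 2 (2.23), male 1 (1.57) and female 1 (1.03), and Alb, the albumin gene, in female 2 (2.69) and female 1 (1.76). A list of 6 atrial muscle genes ranged from -1.16 in female 1 to 0.52 in female 2. Markers of cardiomyocytes stayed within a narrow band (list means -0.08 to 0.02), although centred values cannot show whether a marker is present or absent. In whole tissue, fewer cells of a type and less RNA per cell cannot be told apart.

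The 300 bases around the starts of C7 and C6 are shown first because these were the only measured members whose male and female values did not overlap, and they moved in opposite directions. They are RefSeq sequences of GRCm38.p6, from 250 bases before to 50 bases after the start, with matches to the searched motifs in capitals. C7 is on the minus strand at chr15:5063724-5064023 and C6 on the plus strand at chr15:4726960-4727259, with 1 protein-coding gene, Mroh2b, between both genes in that annotation.
C7: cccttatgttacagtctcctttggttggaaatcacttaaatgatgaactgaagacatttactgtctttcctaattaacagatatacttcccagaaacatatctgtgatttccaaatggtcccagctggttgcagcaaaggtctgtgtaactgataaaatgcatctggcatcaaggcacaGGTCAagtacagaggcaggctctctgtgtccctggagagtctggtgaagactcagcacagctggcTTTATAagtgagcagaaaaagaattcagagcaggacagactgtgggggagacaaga
C6: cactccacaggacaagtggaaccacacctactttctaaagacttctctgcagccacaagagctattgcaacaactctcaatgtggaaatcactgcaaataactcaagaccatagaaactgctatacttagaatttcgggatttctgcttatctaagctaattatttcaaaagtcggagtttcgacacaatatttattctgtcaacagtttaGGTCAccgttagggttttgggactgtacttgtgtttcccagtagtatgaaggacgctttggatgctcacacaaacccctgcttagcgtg

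Both strands of each window were searched for core promoter motifs, for an ETS factor motif and for sex hormone receptor motifs. The core promoter letters were TATAAA, and for the second box CCAAT. The purine-rich ETS core was spelled GAGGAA. One arm of the androgen receptor element was spelled AGAACA, with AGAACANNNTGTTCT as the full element. One arm of the estrogen receptor element was spelled GGTCA, with GGTCANNNTGACC as the full element. A single arm can lie inside a full element. The estrogen receptor arm occurred once in each window, from 71 bases before the start of C7 and from 39 bases before that of C6. That 5-letter motif is common: 40.5% of 32851 promoter windows of equal length hold it. The C7 window also held TATAAA on the opposite strand, from 6 bases before the start, a motif present in 13.6% of all windows. Neither window held the full estrogen or androgen elements, found in 0.0700% and 0.00913% of all windows, the androgen receptor arm (19.0%), the ETS core (28.3%) or the CCAAT box (37.4%). Absence of these letters says only that they are not in this window. Of the 8 measured members, 6 were in the promoter table. Among the others searched, C1qb and C1qc each held the estrogen receptor arm 2 times and C5ar1 3 times, while C3ar1 held none. The androgen receptor arm occurred 1 time in C1qb and 2 times in C1qc, and not in C3ar1 or C5ar1. The sexes overlapped in all of these genes, so the estrogen receptor arm is not particular to C7 and C6.

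C7, whose protein lets the growing attack complex insert into membranes, had the widest spread of the members. Its log2 values in males 1 to 4 were 1.06, 1.27, 0.49 and 0.22, and in females 1 to 4 they were -0.65, -0.22, -0.37 and -0.24. Every male heart lay above every female heart, an order seen in 1.85% of all genes, with a gap of 0.45 between the lowest male and the highest female. The male mean was 0.76 ± 0.49 and the female mean -0.37 ± 0.19 (SD, n = 4 hearts). The difference of -1.13 ± 0.22 (SE; 95% interval -1.62 to -0.65) amounts to 2.19-fold higher signal in males, with an interval of 1.57-fold to 3.07-fold. Only 7 of the 22180 genes had a larger absolute difference, namely Xist, Eif2s3y, Uty, Kdm5d, Scd1, Alb and Acta1. At least 2-fold differences were seen in 0.0361% of all genes and at least 1.5-fold ones in 0.0721%.

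The C7 values also differed among males. Males 1 and 2 stood 0.57 or more above male 3, and the male range of 1.05 was wider than the female range of 0.42. From the highest heart, male 2, to the lowest, female 1, the signal fell 3.78-fold. The SD of C7 over the 8 hearts was 0.70, rank 14 of all genes, against a median of 0.08 over all genes.

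**Figure D1:**
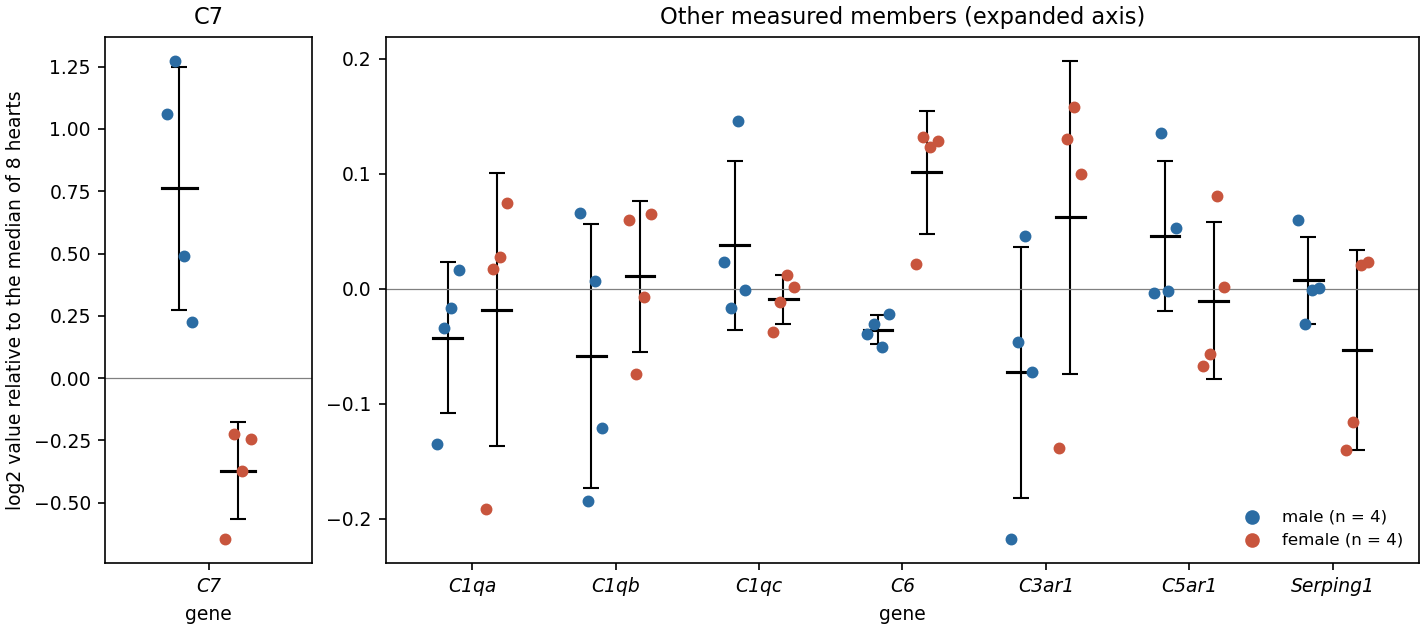
Log2 value of each measured member in each heart, relative to that probe set's median over 8 hearts; dots are hearts (males blue, females red), bars the mean and SD of 4 hearts, and C7 has its own, wider axis. The 4 male C7 values (0.22 to 1.27) lie above the 4 female ones (-0.65 to -0.22), C6 shows the opposite order on a far smaller scale, and the sexes overlap in the other 6 genes.

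Males 1 and 2, the hearts with the highest C7, also carried the highest level of the 8 skeletal muscle genes, with list means of 0.51 and 0.72 against -0.18 to 0.25 in the other hearts. Of these genes, 7 of 8 had higher means in males. Female 1 went the other way, with the third highest skeletal muscle mean (0.25) and the lowest C7. Without the 3 hearts with the highest Myh4 (male 1, male 2 and female 1), the C7 difference was -0.64, or 1.78 times smaller than over all 8 hearts. These hearts are also the highest males and the lowest female in C7, so a smaller difference without them is built in. The part of skeletal muscle RNA in the C7 difference was not tested further. With the skeletal muscle mean as a covariate, chosen after seeing the data, the C7 difference was -0.96.

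The means of the fibroblast and macrophage lists showed far smaller shifts than the single gene C7. A mean over many genes evens out opposite movements, so these are unlike measures. The mean of 12 fibroblast genes ranged from -0.05 to 0.10 in males and from -0.17 to 0.08 in females, with 7 of the 12 on average higher in females and a list mean difference of -0.06. Its Pearson r with C7 was 0.54 over the 8 hearts, and with it as a covariate the C7 difference was -1.01. Single genes of that list, the collagen genes Col1a1 and Col3a1 and also Dpep1, had larger differences with overlapping sexes. Dpep1 had a difference of -0.34. Col1a1 was 0.63, 0.14, -0.07 and 0.10 in males 1 to 4 and -0.35, 0.07, -0.50 and -0.17 in females 1 to 4, with male 3 below female 2, and Col3a1, at -0.16 in male 3, had a difference of -0.44. The mean of 16 macrophage genes ranged from -0.06 to 0.04 in males and from -0.11 to 0.08 in females, with r = 0.07 against C7. The lists with the r of largest size against C7 were lymphocyte (-0.68), skeletal muscle (0.63) and endothelial (0.58). The endothelial means (-0.0044 to 0.08 in males, -0.13 to -0.0067 in females) and the lymphocyte means did not overlap between the sexes, by margins under 0.01. As C7 also separates the sexes, part of the r of both lists over the 8 hearts is built in. It does not show that they follow C7 within a sex. The part of these lists in the C7 values was not tested.

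The named genes closest to C7 in pattern were Ccn5 (r = 0.95), Cdk5r2 (0.95), Ptx4 (0.95), Lox (0.94) and Tmco2 (0.94), by Pearson r over 8 hearts. Since these were picked as the highest of many genes, high values of r are built in, and the points share their arrays and their sex groups. Ccn5, a secreted matricellular protein gene, was 0.45, 0.39, 0.08 and 0.16 in males 1 to 4 and between -0.11 and -0.08 in females. Lox, whose enzyme crosslinks collagen and elastin, was 0.48, 0.39, 0.07 and 0.06 in males 1 to 4 and between -0.13 and -0.06 in females. Both thus shared with C7 the separation of males 1 and 2 from males 3 and 4. With the mean of each sex removed, r with C7 was 0.81 for Ccn5 and 0.85 for Lox. It was 0.84 for Cdk5r2, 0.89 for Ptx4 and 0.86 for Tmco2, on the same hearts that picked these genes. Cdk5r2, Ptx4 and Tmco2 also had males 1 and 2 above males 3 and 4, but varied little, with SD over the hearts of 0.07, 0.08 and 0.05. The genes running most opposite to C7 were the kinase gene Sik2 (r = -0.96), the splicing factor gene Sf3b6 (-0.95) and the aminoacylase gene Acy3 (-0.95), with differences of 0.07, 0.12 and 0.16.

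**Figure D2:**
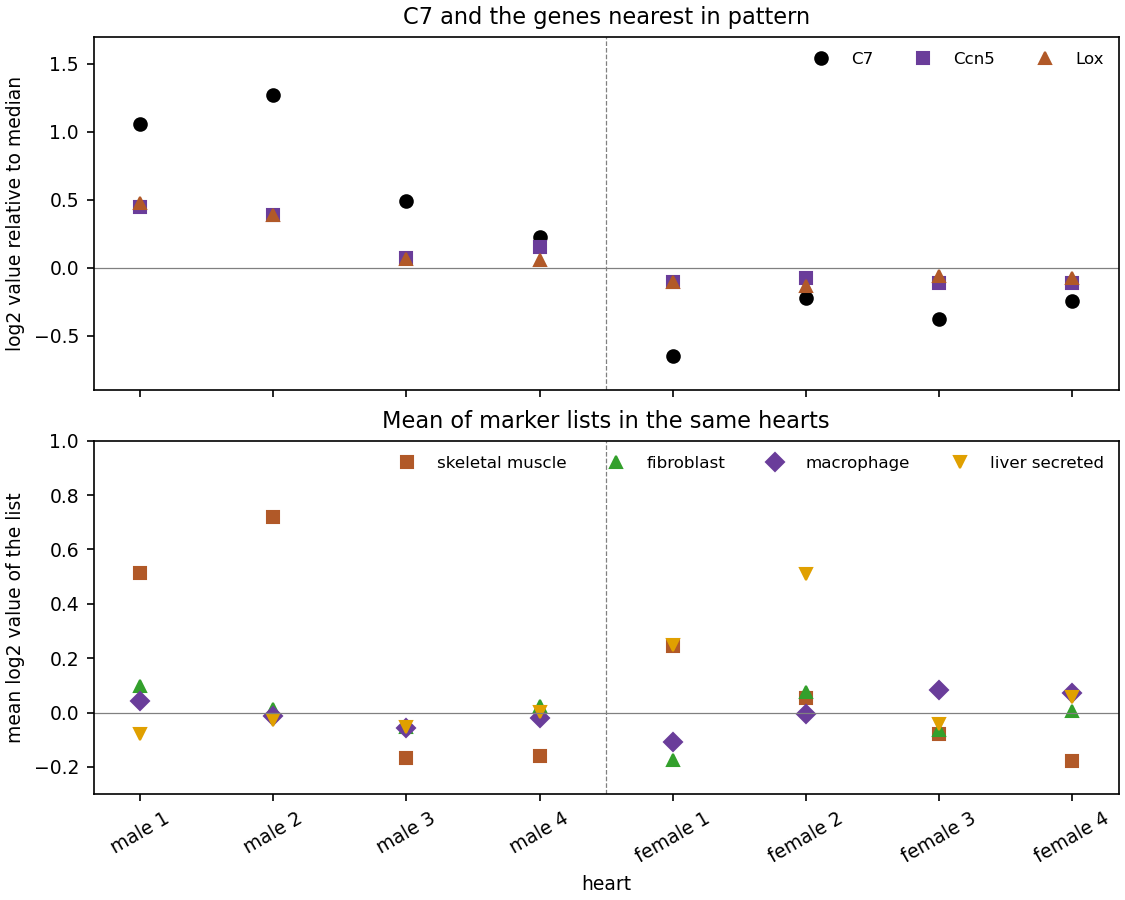
Upper panel, log2 values of C7, Ccn5 and Lox in each of 8 hearts relative to the gene's median; lower panel, mean log2 value of 4 marker lists in the same hearts, with a dashed line between the sexes. C7, Ccn5 and Lox are highest in males 1 and 2, where the skeletal muscle list is also highest (0.51 and 0.72), while female 1 combines a raised skeletal muscle list (0.25) with the lowest C7 (-0.65).

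C6, which joins C5b before C7 in the attack complex, showed a small difference in the other direction. It was -0.04, -0.03, -0.05 and -0.02 in males 1 to 4 and 0.02, 0.13, 0.12 and 0.13 in females 1 to 4. All 4 females lay above all 4 males, an order seen in 1.89% of all genes, although female 1 exceeded the highest male by only 0.04. The difference was 0.14 ± 0.03 (SE; 95% interval 0.06 to 0.21), or 1.10-fold, and that of C7 was 8.27 times larger on the log2 scale. The adipocyte list, with means of -0.33 to 0.05 in males and -0.07 to 0.62 in females, had r = 0.77 with C6. For the lymphocyte list r was 0.64, for the liver and atrial muscle lists 0.52, and for the macrophage list 0.50. The most negative r with C6 was that of the skeletal muscle list (-0.42). The lymphocyte means (-0.04 to -0.01 in males, -0.0033 to 0.07 in females) did not overlap between the sexes, in the same order as C6. Part of their r with C6 over the 8 hearts is therefore built in. The part of these lists in the C6 values was not tested. The C6 difference was 0.16 without the 2 hearts with the highest liver list, females 1 and 2. It was also 0.16 without female 1 alone, the lowest female in C6. Over the 8 hearts C6 and C7 had r = -0.71. As the sexes lie apart in opposite directions in these genes, a negative r over the 8 hearts is built in. With sex means removed r was 0.32, and female 1 was the lowest female in both genes. The course within each sex was not tested.

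The 3 subunits of C1q, which assemble into a single protein, had overlapping sexes and small ranges. C1qa was -0.14, -0.03, -0.02 and 0.02 in males 1 to 4 and -0.19, 0.02, 0.03 and 0.07 in females 1 to 4. Its lowest hearts were female 1 and male 1, one of each sex, and its difference was 0.02 ± 0.06 (SE). C1qb ranged from -0.18 in male 2 to 0.07 in male 1, with a difference of 0.07 ± 0.06 (SE). C1qc stayed between -0.04 and 0.02 in 7 hearts and reached 0.15 in male 3, with a difference of -0.05 ± 0.04 (SE). The 95% intervals were -0.11 to 0.16 for C1qa, -0.07 to 0.20 for C1qb and -0.14 to 0.05 for C1qc, so differences of up to about these bounds remain possible. The subunits did not rise and fall together: r was -0.31 between C1qa and C1qb, 0.17 between C1qa and C1qc, and 0.19 between C1qb and C1qc. Their SDs of 0.09, 0.09 and 0.06 were close to the median of 0.08 over all genes.

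C3ar1, the receptor gene for the C3a fragment, varied more than C1q and, of its subunits, moved most closely with C1qa. It was -0.22, -0.05, 0.05 and -0.07 in males 1 to 4 and -0.14, 0.13, 0.16 and 0.10 in females 1 to 4. Of the females, 3 lay above all males, while female 1 lay below 3 of the 4 males. The difference was 0.13 ± 0.08 (SE; 95% interval -0.04 to 0.31), and it was 0.20 without female 1. C1qa and C3ar1 had r = 0.81 over 8 hearts, and 0.87 with sex means removed. For C3ar1 with C1qb these were -0.12 and -0.42, and with C1qc 0.16 and 0.53. Male 1 and female 1 were the lowest hearts for C1qa and C3ar1, but not for C1qb (0.07 and 0.06). Female 1 also had the lowest atrial muscle mean (-1.16), with -0.93 in male 3 and -0.73 in male 1, and that list had r = 0.77 with C1qa and 0.53 with C3ar1. Other lists also moved with these genes: r with C1qa was 0.79 for the mesothelial and epicardial list, 0.65 for the adipocyte list, -0.59 for the skeletal muscle list and 0.57 for the macrophage and endothelial lists, and r with C3ar1 was 0.75 for the adipocyte list and -0.60 for the skeletal muscle list. The bearing of these lists on either gene was not tested.

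C5ar1, the receptor gene for C5a, was highest in male 2 (0.14) and female 3 (0.08) and lowest in female 1 (-0.07). Its difference was -0.06 ± 0.05 (SE; 95% interval -0.16 to 0.05), with overlapping sexes. Serping1, which encodes the inhibitor of the C1r and C1s proteases, ranged from -0.03 to 0.06 in males. In females it was -0.14 and -0.12 in hearts 1 and 2 and 0.02 in hearts 3 and 4. Females 1 and 2 were the hearts with raised Alb. The Serping1 difference of -0.06 ± 0.05 (SE; 95% interval -0.17 to 0.05) became 0.01 without them. They are also the lowest hearts in Serping1, so a move upwards without them is built in. The part of liver RNA in the Serping1 difference was not tested.

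**Figure D3:**
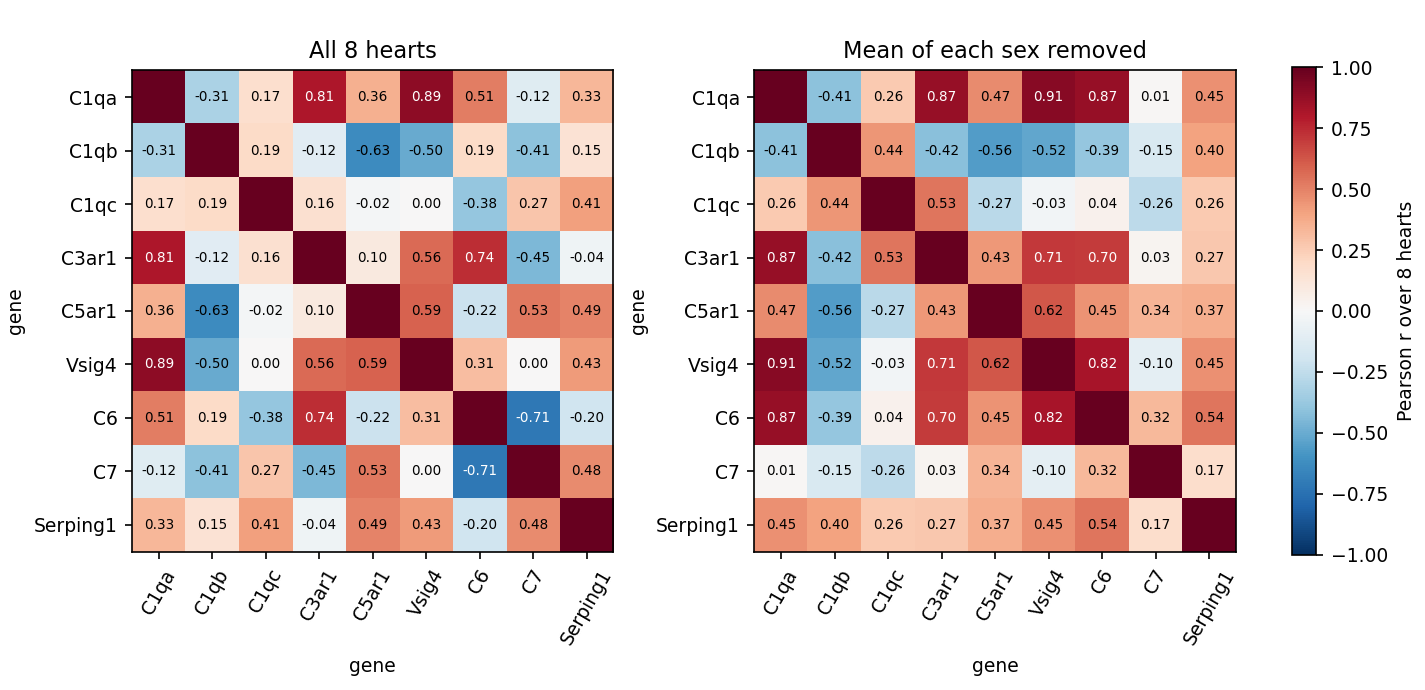
Pearson r between measured members and Vsig4 over 8 hearts, on the values as given (left) and with the mean of each sex removed (right), on a colour scale from -1 to 1. On the left the highest values are those of C1qa with Vsig4 (0.89) and with C3ar1 (0.81), while C6 with C7 goes from -0.71 to 0.32.

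Split by direction, 4 measured members were on average higher in females and 4 in males, and the 8 had a median difference of -0.01 against -0.001 over all genes. Values of the sexes did not overlap in 2 of them, C7 and C6, where 3.74% of all genes had no overlap. In the limma fit 0 of 8 had an adjusted p under 0.05, where 0.0316% of all genes did, and 2 had an unadjusted p under 0.05, where 6.96% did. As the genes were chosen with this contrast known, nothing is read from those counts. The median absolute difference was 0.06 over the members and 0.04 over all genes.

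**Figure D4:**
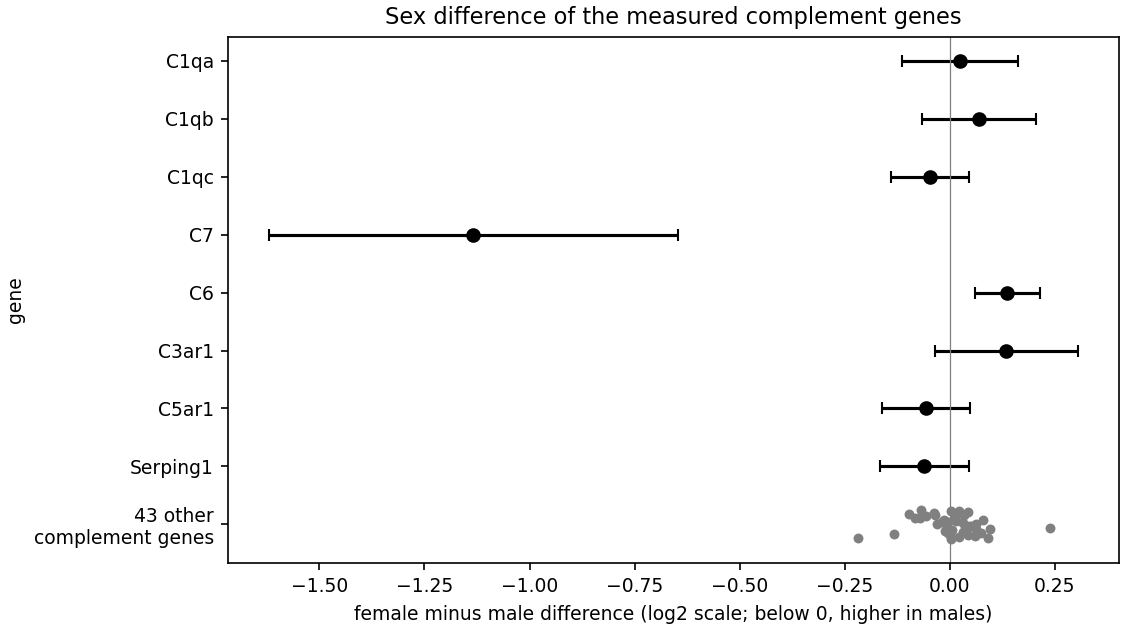
Female minus male difference on the log2 scale for each measured member with its 95% interval (limma, n = 4 hearts per sex), and below them the 43 other complement genes, 1 grey dot each. C7 lies at -1.13, the other members between -0.06 and 0.14, and the other complement genes between -0.22 and 0.24.

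The rest of the cascade was taken from a list of 46 other complement genes, of which 43 were measured. The mean was higher in females for 26 and in males for 17, and the median difference was 0.01. That is 60.5% higher in females, against 49.6% of all genes. The median absolute difference was 0.035, against 0.038 over all genes. By limma 0 passed at an adjusted p under 0.05 and 3 had an unadjusted p under 0.05, and values of the sexes did not overlap in 2, Cfp and C1rb, shares to be read beside the 6.96% and 3.74% of all genes. Higher in females on average were 10 of 15 initiators and early proteases, 4 of 5 terminal genes, 6 of 14 regulators and 4 of 7 receptors. Both measured genes of the alternative pathway, Cfb and Cfp, had higher means in females.

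Cfp encodes properdin, which stabilises the C3-cleaving enzyme of the alternative pathway. It was -0.26, -0.09, -0.25 and -0.02 in males 1 to 4 and 0.02, 0.03, 0.25 and 0.03 in females 1 to 4. The sexes did not overlap, but the difference of 0.24 ± 0.07 (SE) did not pass (limma adjusted p = 0.563). C1rb, a copy of the gene for the protease C1r, was between 0.06 and 0.19 in males and between -0.13 and -0.06 in females. Its difference of -0.22 ± 0.04 (SE) had the smallest p of the 43 and did not pass (limma adjusted p = 0.265). C1ra, the closely related copy, differed by 0.0035 and ranged from -0.14 to 0.37 over the hearts, and cross-hybridisation between both copies was not tested. Masp1, a protease gene of the lectin pathway, had a difference of -0.13 ± 0.05 (SE; limma adjusted p = 0.64), and the protease gene C1s1 one of 0.09 ± 0.04 (SE; limma adjusted p = 0.73).

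Vsig4, a receptor for C3 fragments on resident macrophages, varied most of the 43, with an SD of 0.33 over the hearts. It was -0.35, 0.02, -0.15 and 0.39 in males 1 to 4 and -0.61, -0.02, 0.23 and 0.18 in females 1 to 4. Its lowest hearts, female 1 and male 1, were again those lowest in C1qa and C3ar1, and r with C1qa was 0.89. With the other subunits r was -0.50 (C1qb) and 0.00068 (C1qc). The sexes overlapped (difference -0.04 ± 0.20 SE, limma adjusted p = 0.991), with a direction that changed under 5 of 21 alternatives. C4b, the C4 gene of the classical and lectin pathways, had an SD of 0.18 and a difference of 0.0014 ± 0.11 (SE; limma adjusted p = 0.998). It was low in male 2 (-0.23), female 1 (-0.19) and female 2 (-0.28) and highest in female 4 (0.17).

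By the mean of C1qa, C1qb and C1qc, the closest named genes were Rcc1l (r = 0.97), Mrpl55 (0.96), Ccdc134 (0.95), Irf7 (0.94) and Thap7 (0.94), and the most opposite were Kcnip4, B4galnt1 and Clstn2 (-0.95, -0.94 and -0.94). These follow from a mean of subunits that did not move together and describe the 8 arrays only.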

How the data were processed

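The authors' deposited table holds log2 values of 34351 probe sets on 8 arrays, each row with a median of 0 (tolerance 1e-06). The log base was taken as 2. The software and steps before deposit are not given here. Per the labels' protocols, 100 ng of total RNA went into each biotin labelling. Probe sets with 1 symbol in the platform annotation (23521, against 1814 with several and 9016 unnamed) were averaged per gene. Females minus males was fitted in limma (version 3.58.1, R version 4.3.3), with sex as the single term and moderated variances, over 22180 genes with Benjamini-Hochberg adjustment at 0.05, and the code was tested on simulated data. The number of arrays limits the precision.

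The members and lists were chosen with earlier results of these data known. Named were the members, and of the 43 other complement genes any past the threshold, the 2 per direction with the smallest p and the 4 with the largest SD. Also named were the 5 nearest and 3 most opposite genes by Pearson r, without predicted, small RNA or olfactory genes, and up to 3 genes of largest SD per marker list. Alternatives were other scalings, single probe sets, other variance settings, array weights, a replicate block, protein-coding genes only, list covariates and left-out arrays. Atrial and skeletal muscle covariates were added after seeing the data.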

Additional observations from a re-analysis of the deposited data

Results flagged for a closer look

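Within each sex, the members, the other complement genes named above and the marker list means were examined for 1 heart standing far from the other 3, by the gap divided by the range against Dixon's 95% critical value. This picked out 4 of 54 groups, where chance gives about 1 in 20. C6 in female 1 (0.022) lay below the other females, which were between 0.12 and 0.13. C1s1 in female 1 (0.14) lay above the other females (-0.0024 to 0.02). The endothelial list mean in female 1 (-0.13) lay below the other females (-0.015 to -0.0067). Cfp in female 3 (0.25) lay above the other females (0.02 to 0.03).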

How the results depend on the processing

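Over 21 alternatives C7 stayed higher in males (-1.31 to -0.64) and C6 higher in females (0.13 to 0.16). Single probe sets, other variance settings, protein-coding genes only and the replicate block could not change a member's difference. Their unchanged values therefore carry no weight, here or in the counts of kept directions below. C7 moved by more than its replicate SD without the 3 hearts with the highest Myh4 (-0.64), which are also the highest males and the lowest female in C7. With single hearts left out the C7 difference ran from -1.31 to -0.96. C1qb, C1qc, C3ar1 and C5ar1 kept their direction in all 21, C1qa changed sign in 3 and Serping1 in 1. None of the other complement genes passed in any alternative. No member did either, but nothing is read from that, as the members were chosen with this contrast known. All genes gave 7 calls, 4 without male 3, 4 to 7 with single hearts left out and 8 with the replicate block. Of the 7 other complement genes followed through the alternatives, the direction turned in 3. C1ra was -0.0034 with quantile normalization, -0.077 without the 2 hearts with the highest liver list, -0.026 with the atrial covariate, and -0.10 to 0.091 with single hearts left out. C4b was -0.0089 with array weights, -0.040 with the macrophage covariate, -0.055 with the skeletal muscle covariate, and -0.068 to 0.082 with single hearts left out. Vsig4 was 0.050 with the fibroblast covariate, 0.22 without the 2 highest liver hearts, 0.0045 without the 3 highest Myh4 hearts, and -0.15 to 0.15 with single hearts left out. The cause of these changes was not tested. Whether replicate numbers pair the hearts was left unsettled. Deviations of same-numbered hearts had r from 0.0062 to 0.14, over 0.1 in 1 of 4 pairs. Differently numbered hearts had r from -0.13 to 0.095, and 5 of 8 hearts correlated best with their own number. As each number belongs to 1 male and 1 female, the replicate block could not move the C7 difference from -1.13. It changed no call among complement genes. Signal over background is unknown in centred values, so small differences of dim probe sets cannot be told from noise floors.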
